A study of Mus musculus with 6 samples.

Results

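The genes described here are 6 mouse genes best known from white blood cells: Cd68, Lilrb4a, Lilr4b, Havcr2, Ptprc and Mrc1. They were chosen by name, out of 19937 named genes with a value on the arrays, after earlier results of these data were known: the first 4 because their levels were higher in treated tumour cells, and Ptprc and Mrc1 as checks on leukocyte content. Each has 1 probe set with a single gene symbol, so no choice between probe sets was needed. The data cover the A316 line, a primary adenocarcinoma line in which C/EBP alpha (Cebpa) is knocked out, on 6 Affymetrix arrays. Cells on 3 arrays had been given the compound PTC-209, described as a Bmi inhibitor, in 0.5% DMSO, and cells on the other 3 had been given 0.5% DMSO alone. The knockout is shared by both groups, and the labels name 1 line. The sources used here give no dose, no exposure time and no account of how Cebpa was deleted. Whether replicate arrays stand for separate cultures is not labelled, and the spread and p-values therefore measure only the variation between these samples, which may be technical.

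Cd68 (macrosialin) is a heavily glycosylated membrane protein of late endosomes and lysosomes, related to the LAMP proteins, and is used as a macrophage marker. Lilrb4a encodes gp49B, a surface receptor of myeloid cells, mast cells and activated NK cells that recruits phosphatases through inhibitory motifs in its tail, and Lilr4b encodes its close relative gp49A. Havcr2 encodes TIM-3, an inhibitory receptor of T cells and myeloid cells. Ptprc encodes the phosphatase CD45, carried by nearly all nucleated blood cells, and Mrc1 encodes the mannose receptor CD206, a marker of tissue macrophages that some endothelial cells also carry.

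The values are log2 expression, and the median over all probe sets tested, 4.33, is used below as a mark of dimness: a level under it may be little more than background. The values of Cd68, Lilrb4a, Lilr4b and Havcr2 in this comparison chose these genes, and those of Ptprc and Mrc1 belong to the same comparison, so their differences are described and not tested. Levels of 4 of the 6 genes were higher on all 3 PTC-209 arrays than on any DMSO array, as were those of 21.1% of all genes. Mrc1 was lower on all 3, as were 19.4% of all genes, and Ptprc overlapped. Ptprc and Mrc1, included as checks on leukocyte content, were not higher, so a label of genes induced by the compound does not cover all 6. The other 4 were chosen for being higher, and their levels are no check of that label. Which cells of the culture carried the mRNA was not measured. Since an array of bulk RNA reads a mixture, fewer cells of a type and less RNA per cell cannot be told apart.

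**Figure D1:**
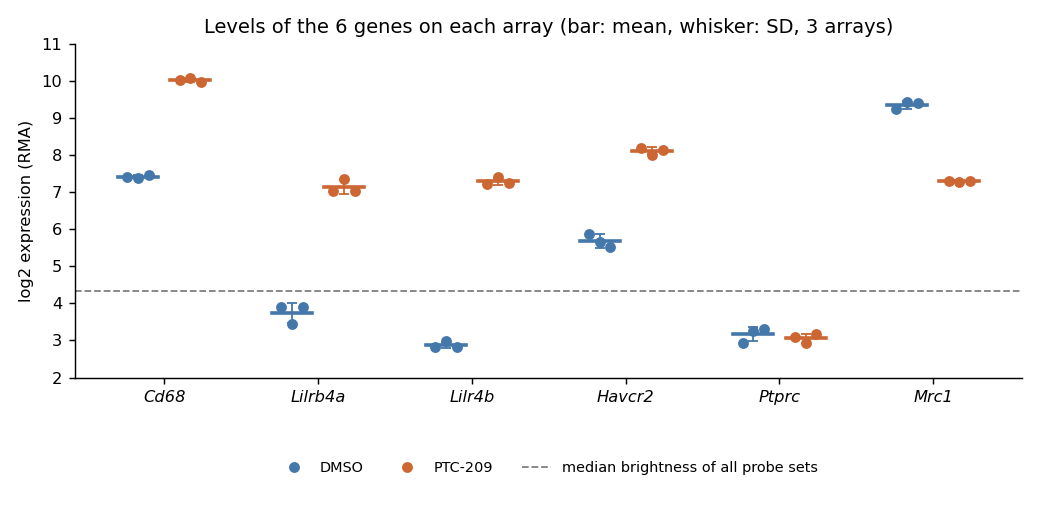
Log2 expression (RMA) of the 6 genes on each array, DMSO in blue and PTC-209 in orange, with the mean and SD of 3 arrays; the dashed line is the median brightness of 4.33. Cd68, Lilrb4a, Lilr4b and Havcr2 lie higher with PTC-209, Mrc1 lies lower, and Ptprc lies under the dashed line in both groups.

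Cd68 was at 7.41, 7.37 and 7.46 on the DMSO arrays 1 to 3 and at 10.03, 10.07 and 9.99 on the PTC-209 arrays 1 to 3. The groups were 2.53 apart at their nearest arrays, while the arrays of either group spanned 0.084. The means were 7.42 ± 0.042 (SD, n = 3) and 10.03 ± 0.042, a log2 difference of 2.61 or a 6.11-fold higher level. Cd68 was bright in both groups, and its difference ranked 23 among the rises of all 19937 genes.

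Havcr2 was at 5.88, 5.65 and 5.53 on the DMSO arrays and at 8.19, 8.01 and 8.14 on the PTC-209 arrays. The means were 5.68 ± 0.18 and 8.12 ± 0.092 (SD, n = 3), a difference of 2.43 or a 5.39-fold higher level, at rank 28. Like Cd68, it was above the median brightness with DMSO alone. The gap between the groups was 2.14, against a span of 0.35 within DMSO and 0.18 within PTC-209.

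Lilr4b and Lilrb4a differed from these in lying under the median brightness with DMSO alone. Lilr4b was at 2.82, 2.98 and 2.83 with DMSO and at 7.22, 7.40 and 7.26 with PTC-209. Its means were 2.87 ± 0.087 and 7.30 ± 0.094 (SD, n = 3), and the deposited values differed by 4.42. A DMSO level that may be little more than background leaves the size of this difference uncertain, so no fold or rank is given for either gene. Lilrb4a was at 3.90, 3.43 and 3.89 with DMSO and at 7.03, 7.36 and 7.03 with PTC-209. The means were 3.74 ± 0.27 and 7.14 ± 0.19, a difference of 3.40 between the deposited values. Its PTC-209 arrays 1 and 3 hold the same value to every deposited digit. Such exact ties occurred for 41 of 28192 probe sets between these arrays, and for 0.15% to 0.32% of probe sets between any pair of arrays. The pair of receptor genes are neighbours on chromosome 10 and near-identical over much of their sequence, so probes may read both transcripts and the share of each in the higher signal is uncertain.

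Ptprc was at 2.95, 3.26 and 3.30 with DMSO and at 3.09, 2.92 and 3.17 with PTC-209. All 6 values lay under the median brightness, the groups overlapped, and the means were 3.17 ± 0.19 and 3.06 ± 0.12 (SD, n = 3). The difference was -0.11, within the spread of either group. CD45 mRNA was thus dim on every array, whichever treatment the cells had.

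Mrc1 behaved unlike the other 5 genes. It was bright with DMSO alone, at 9.24, 9.44 and 9.40 on the DMSO arrays, and was at 7.32, 7.27 and 7.31 on the PTC-209 arrays. The means were 9.36 ± 0.10 and 7.30 ± 0.028 (SD, n = 3), a difference of -2.06 or a 4.18-fold lower level, at rank 185 among the falls of all genes. The groups lay 1.93 apart at their nearest arrays. Even the lower group stayed above the median brightness, so this macrophage marker was bright on all 6 arrays while Ptprc was dim on all 6.

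The bases before the transcription start of the 3 genes that were higher with PTC-209 and have a promoter entry in RefSeq (build GRCm38.p6) are shown because these genes were higher together. The search covered the 250 bases before the start and the 50 after it, on both strands, and the part before the start is printed 5′ to 3′ along the gene. Capitals mark matches to any of 6 motifs.
Cd68, chr11:69666171-69666420, minus strand: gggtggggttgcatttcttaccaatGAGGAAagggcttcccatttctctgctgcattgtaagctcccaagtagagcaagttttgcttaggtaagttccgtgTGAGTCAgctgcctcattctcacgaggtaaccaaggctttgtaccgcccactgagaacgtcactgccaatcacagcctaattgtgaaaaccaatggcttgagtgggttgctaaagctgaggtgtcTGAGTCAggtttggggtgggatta
Havcr2, chr11:46454681-46454930, plus strand: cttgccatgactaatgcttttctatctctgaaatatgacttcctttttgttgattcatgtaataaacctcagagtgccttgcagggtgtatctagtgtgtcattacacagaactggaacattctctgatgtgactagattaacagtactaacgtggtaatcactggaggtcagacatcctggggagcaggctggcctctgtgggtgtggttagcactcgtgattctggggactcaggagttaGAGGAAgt
Lilr4b, chr10:51480362-51480611, plus strand: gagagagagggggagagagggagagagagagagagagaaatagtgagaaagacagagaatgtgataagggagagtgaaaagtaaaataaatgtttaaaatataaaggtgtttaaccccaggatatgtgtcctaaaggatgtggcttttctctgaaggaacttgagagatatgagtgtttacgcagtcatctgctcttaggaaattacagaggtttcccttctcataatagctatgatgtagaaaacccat
The motifs were TGATGNAA (the composite C/EBP and ATF site), TCACGTG and the CACGTG inside it (the E-box read by the MiT/TFE factors), TGAGTCA (AP-1), TGACNNNGC (the antioxidant response core) and GAGGAA (the core read by PU.1 and other ETS factors). TGAGTCA stood at positions -149 and -24 of Cd68, counted from the start site at 1, and in 5.2% of all 32851 windows of this length. GAGGAA stood at -225 of Cd68, at -8 of Havcr2 and, on the other strand, at 30 of Cd68, and in 28.3% of all windows. The Lilr4b window held none of the 6 motifs, and the remaining motifs, present in 4.0% (TGATGNAA), 3.8% (TCACGTG), 7.2% (CACGTG) and 12.4% (TGACNNNGC) of windows, were in none of the 3. A match is only a string of letters, and GAGGAA, found in Cd68 and Havcr2, also stood in windows of Ptprc and Mrc1, which were not higher. It was at -158 in only 1 of the Ptprc windows and, on the other strand, at -180, -167 and -35 of Mrc1.

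Leukocyte markers were mostly dim on the same arrays. Lists of markers of leukocytes in general and of macrophages, dendritic cells, T and NK cells, B and plasma cells, neutrophils, mast cells and basophils, and osteoclasts held 144 measured genes besides Ptprc and Mrc1. In both groups 116 of these, or 80.6%, lay under the median brightness, against 44.6% of all genes. By limma, with the p-value adjusted over all 28192 probe sets and a threshold of 0.05, 6 of the 144 rose and 9 fell, where 12.9% of all genes rose and 13.7% fell. The median log2 difference of the 144 was 0.032 and that of all genes 0.026. Of genes under the median brightness in both groups, 3 of the 116 markers passed, as did 288 of 8891 over all genes. The lower share of calls among the 144 is therefore not read as a trait of leukocyte markers. The 119 markers whose mean over the 6 arrays was under the median brightness summed, on the linear scale, to between 1152 and 1210 on the DMSO arrays and between 1177 and 1253 on the PTC-209 arrays, and 4 of them rose and 1 fell by limma. These ranges overlapped. All 144 summed to between 3034 and 3109 with DMSO and between 2220 and 2349 with PTC-209, but most of that gap came from Mcpt8 and Ptpn22. Without these bright genes the other 142 summed to between 1957 and 1992 with DMSO and between 1839 and 1943 with PTC-209. These last ranges still did not overlap.

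**Figure D2:**
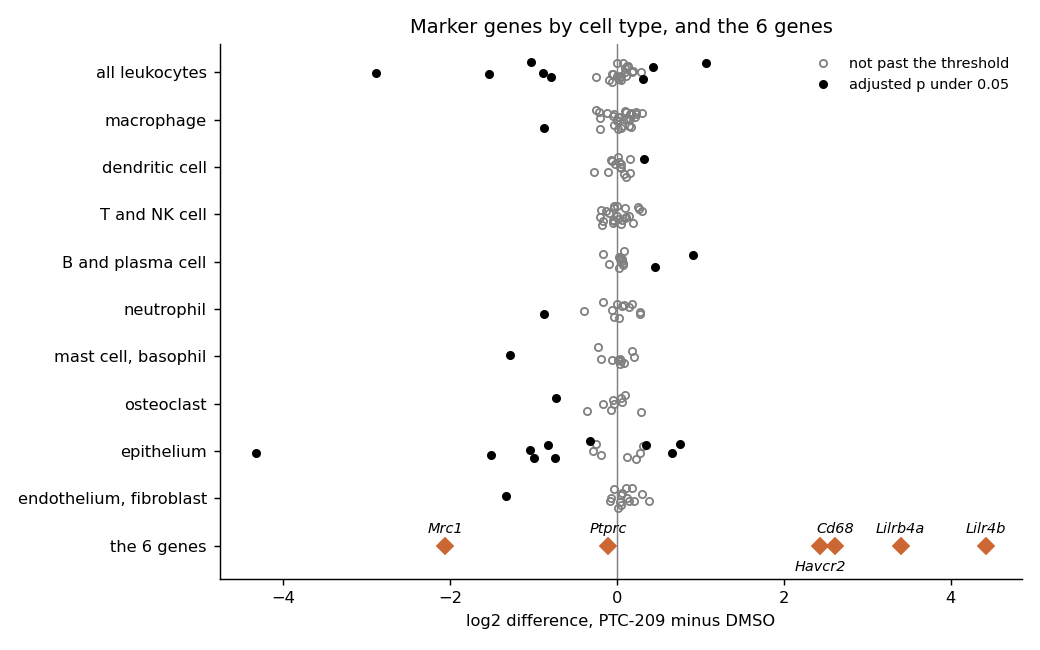
Log2 difference, PTC-209 minus DMSO, of each marker gene (circles, filled where the limma adjusted p is under 0.05) by cell type, with the 6 genes as diamonds in the last row. Most leukocyte markers sit near 0, whereas Cd68, Havcr2, Lilrb4a and Lilr4b lie between 2.43 and 4.42.

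Of the 29 macrophage markers measured besides Mrc1, 27 were under the median brightness in both groups, 0 rose and 1 fell by limma (3 had an unadjusted p under 0.05). Without PTC-209 replicate 1, 1 of the 29 rose. The exceptions in brightness were Cd14, a co-receptor for bacterial lipopolysaccharide, and Trem2. Cd14 was the gene that fell, from 6.76 ± 0.26 to 5.88 ± 0.044 (SD, n = 3; limma adjusted p = 0.00094). Defining markers of the lineage stayed dim: the receptor Csf1r was at 3.46 ± 0.038 and 3.57 ± 0.010, the macrophage surface protein gene Adgre1 at 2.78 ± 0.079 and 2.52 ± 0.084, and Tyrobp, the adaptor DAP12, at 3.72 ± 0.20 and 3.87 ± 0.11. Spi1, the transcription factor PU.1 of myeloid cells, was at 3.48 ± 0.14 and 3.57 ± 0.30. The 29 genes together summed to between 375 and 402 with DMSO and between 343 and 349 with PTC-209. Without Cd14, the other 28 summed to between 269 and 284 with DMSO and between 283 and 290 with PTC-209, so the lower total came from that gene.

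Of 24 T and NK cell genes 0 rose and 0 fell by limma (2 had an unadjusted p under 0.05). When DMSO replicate 1 or the dim probe sets were left out, 1 of them rose. Among 13 neutrophil genes 1 fell, Ly6g, at 2.61, 3.78 and 3.56 with DMSO and at 2.30, 2.48 and 2.56 with PTC-209 (limma adjusted p = 0.0343), a dim call that was lost without any 1 array other than DMSO replicate 1. Without replicate 1 of either group, 1 neutrophil gene rose. Among 13 B cell genes 2 rose, the adaptor Blnk from 3.86 ± 0.099 to 4.76 ± 0.21 (SD, n = 3) and Ebf1, which was dim throughout and lost its call when PTC-209 replicate 1 or DMSO replicate 1 or 3 was left out. Flt3, a cytokine receptor, rose by 0.32 as the only one of 15 dendritic cell genes, a call lost whichever array was left out.

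Acp5, an acid phosphatase of osteoclasts, fell by 0.73 as the only one of 10 osteoclast genes to pass.

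Some genes named for blood cells were nevertheless bright in the line, as Mrc1 was. Mcpt8, a basophil protease gene, fell from 9.75 ± 0.025 to 8.47 ± 0.072 (SD, n = 3), the only one of 11 mast cell and basophil genes to pass. Of the 29 pan-leukocyte genes 3 rose and 5 fell, counts near the 12.9% and 13.7% of all genes. Ptpn22, a phosphatase that restrains lymphocyte receptor signals, fell from 7.81 ± 0.095 to 4.91 ± 0.0605, a 7.44-fold lower level (limma adjusted p = 2.51e-07). The integrin chain Itgb2 fell from 5.86 ± 0.18 to 4.32 ± 0.18, and Spn (CD43), Arhgdib and the phosphatase Ptpn6 fell by 1.03, 0.89 and 0.79. The tetraspanin Cd53 rose from 4.57 ± 0.16 to 5.63 ± 0.088 (limma adjusted p = 9.22e-05). The other rises, of Lcp1 (0.43) and Sla (0.31), were smaller: Lcp1 lost its call without replicate 1 of either group, DMSO replicate 2 or PTC-209 replicate 3, and Sla without any 1 array. Over all 144 genes the rises numbered 3 without replicate 3 of either group or DMSO replicate 2, and 4 without any other array. Without replicate 1 of either group, these 4 included genes that had not passed with all 6 arrays.

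**Figure D3:**
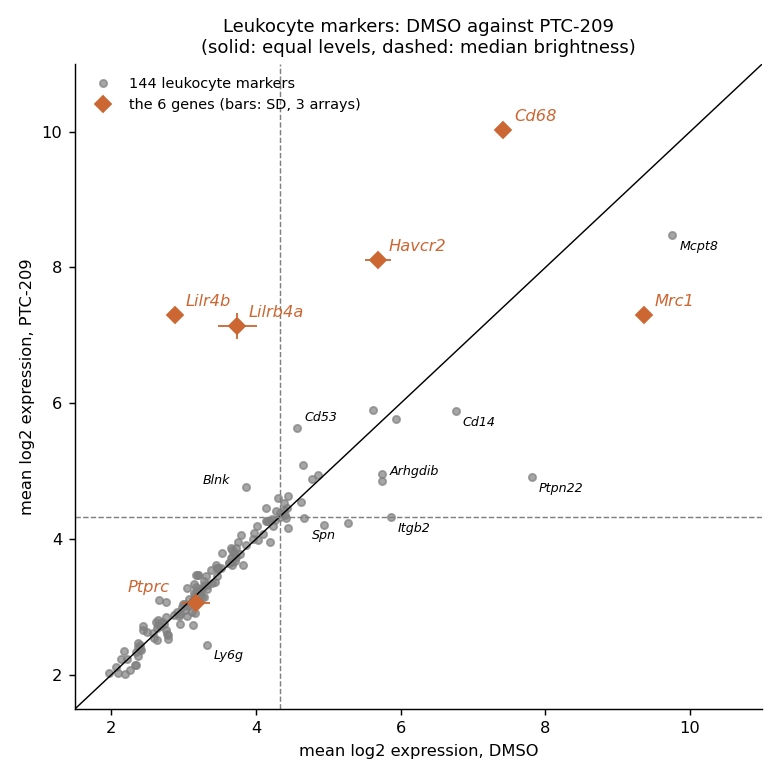
Mean log2 expression with PTC-209 against mean log2 expression with DMSO for 144 leukocyte markers (grey) and the 6 genes (orange, bars are SD of 3 arrays), with the line of equal levels and the median brightness of 4.33 as dashed lines. Most markers lie on the line in the dim corner with Ptprc; Mcpt8, Ptpn22 and Mrc1 are bright with DMSO and lie under the line.

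Epithelial markers were mostly bright, but lung lineage markers were dim. Of 17 measured epithelial genes 12 were above the median brightness in at least 1 group, and the keratins Krt8 (11.41 ± 0.11 with DMSO) and Krt18 (11.30 ± 0.092) were bright. The lung lineage factor Nkx2-1 (3.60 ± 0.080) and the surfactant genes Sftpc and Sftpb were dim. With PTC-209, 3 of the 17 rose, Esrp1, Cldn4 and Cdh1, and 7 fell, Muc1, Krt7, Krt18, Krt19, Krt8, Elf3 and Cldn3, where 12.9% of all genes rose and 13.7% fell. Muc1 fell most of the 7, from 7.87 ± 0.15 to 3.55 ± 0.61 (SD, n = 3; limma adjusted p = 2.58e-06), and was under the median brightness with PTC-209. Among the keratins, Krt8 fell by 0.83 and Krt7 fell by 1.51 on the log2 scale. The calls of Cdh1 and Cldn3 were lost without PTC-209 replicate 1, 2 or 3 or DMSO replicate 2, and also without DMSO replicate 3 for Cdh1 and DMSO replicate 1 for Cldn3, and both were lost after median centring. Of 16 endothelial and fibroblast markers 1 fell, the cadherin Cdh5, from 9.48 ± 0.049 to 8.15 ± 0.21. The part of other cells in the levels of the 6 genes was not tested beyond these marker values.

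The close relatives of the gp49 receptors and of TIM-3 were dim on all arrays. The 5 other measured members of the LILR and PIR group, Pirb, Lilra5, Lilra6, Lair1 and Oscar, are leukocyte receptors, and all were dim in both groups. By limma 0 of them passed (2 had an unadjusted p under 0.05), with differences between -0.30 for Lilra6 and 0.33 for Lilra5 and an SE of 0.12 and 0.13. Havcr1, Timd2 and Timd4, the other TIM genes measured, were dim too, with differences of 0.098, 0.017 and 0.087, and 0 passed (0 had an unadjusted p under 0.05).

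Of the 4 measured LAMP relatives of Cd68, 2 rose and 0 fell by limma, where 12.9% of all genes rose and 13.7% fell. Lamp1, a major glycoprotein of the lysosomal membrane, rose from 9.69 ± 0.031 to 10.40 ± 0.052 (SD, n = 3; difference 0.71, SE 0.089, limma adjusted p = 0.000308). Lamp2, which also serves chaperone-mediated autophagy, rose from 9.33 ± 0.078 to 10.13 ± 0.020 (difference 0.81, SE 0.091, limma adjusted p = 0.000155). Both were higher on all 3 PTC-209 arrays, by less than Cd68 in log2 terms. Lamp3 and Lamp5, which are restricted to certain cells, were dim, with differences of 0.067 and -0.031. Scarb2, the lysosomal receptor LIMP-2 and 1 of 15 scavenger receptors, rose from 7.25 ± 0.22 to 7.92 ± 0.16, and Scara3 fell by 0.60, a call lost without replicate 2 of either group, DMSO replicate 3 or PTC-209 replicate 1.

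Among the mannose receptor relatives of Mrc1, Ly75 (DEC-205), an endocytic receptor of dendritic cells and epithelia, fell from 7.22 ± 0.22 to 6.12 ± 0.15 (SD, n = 3; limma adjusted p = 0.000239). It was lower on all 3 PTC-209 arrays. Mrc2 and Pla2r1 were dim, with differences of 0.018 and -0.054.

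The ligands and signalling partners of TIM-3 and gp49B included 2 of 16 that rose and 5 that fell, where 12.9% of all genes rose and 13.7% fell. The falls numbered 3 without PTC-209 replicate 2. Lgals9, galectin-9, a TIM-3 ligand, was at 8.53, 8.19 and 8.12 with DMSO and at 5.85, 5.79 and 5.72 with PTC-209. It fell 5.63-fold (difference -2.49, SE 0.123, limma adjusted p = 1.02e-06). Its receptor gene Havcr2 was chosen for being higher, so any gene that fell moves opposite to it. Hmgb1, another TIM-3 ligand, fell by 0.70, but its call was lost without any 1 array other than DMSO replicate 1. Fibronectin, Fn1, a ligand of gp49B, fell from 10.15 ± 0.098 to 9.26 ± 0.25. Adam10, a protease that sheds TIM-3 from the surface, fell by 0.37, a call lost without PTC-209 replicate 2. Ceacam1, also described as a TIM-3 ligand, was dim, and the gp49B ligand integrin chains Itgav and Itgb3 differed by 0.079 and 0.041 and did not pass.

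Of the signalling proteins, the phosphatase Ptpn6 (SHP-1), which binds the inhibitory motifs of gp49B, fell from 5.74 ± 0.21 to 4.95 ± 0.15 (SD, n = 3; limma adjusted p = 0.00176). The related phosphatase Ptpn11 (SHP-2) rose from 7.90 ± 0.026 to 8.37 ± 0.089 (limma adjusted p = 0.00437). Fyn, a Src family kinase that acts on the TIM-3 tail, rose from 6.55 ± 0.21 to 7.80 ± 0.19, 2.39-fold. Bag6, which binds the same tail, differed by 0.30 and did not pass. The adaptors Tyrobp and Fcer1g were dim.

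Of 35 other inhibitory receptors and their ligands 2 rose and 5 fell, against 12.9% and 13.7% of all genes, and the falling share was near that background. Tigit, a T and NK cell receptor, was bright in this line and fell from 7.79 ± 0.10 to 6.20 ± 0.055 (SD, n = 3; limma adjusted p = 3.17e-06). Its ligand Pvr rose from 8.12 ± 0.15 to 9.23 ± 0.077, 2.16-fold, and Nectin2, a further ligand, fell by 0.54. The paired receptors Pilra and Pilrb1 fell by 1.09 and 1.23, and Cd47, which restrains phagocytes, by 0.49. Cd274 (PD-L1) rose narrowly, by 0.69 (limma adjusted p = 0.0489), with overlapping groups, and lost its call without any 1 array other than DMSO replicate 1 and after cyclic loess or median centring.

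Of 22 factors and cytokines of myeloid cells 7 rose and 3 fell, where 12.9% of all genes rose and 13.7% fell. With a minimum fold change of 1.2 the rises numbered 3. Bhlhe41, a repressor active in alveolar macrophages and in the circadian clock, was at 3.79, 3.63 and 3.13 with DMSO and at 6.14, 6.74 and 6.41 with PTC-209 (limma adjusted p = 5.68e-06). The haem-regulated repressor Bach1 rose by 0.73, Cebpb by 0.67, the growth factor Csf2 by 0.65 and Klf4 by 0.46. Runx1 (0.42) and Csf2ra (0.34) also rose, but Runx1 lost its call without any 1 array other than DMSO replicate 1, and Csf2ra without replicate 2 or 3 of either group. Csf1, the growth factor of macrophages, fell from 7.18 ± 0.028 to 5.47 ± 0.61, Cebpd by 0.81 and Pparg by 0.39.

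The genes with profiles nearest to each of the 4 higher genes were found by the root mean square difference between log2 values over the 6 arrays, each gene centred on its mean. Nearest to Cd68 were Nupr1, a stress-responsive nuclear protein (0.084), the rhomboid protease Rhbdd1 (0.092) and the mitochondrial folate enzyme Aldh1l2 (0.10). Nearest to Havcr2 were Clba1 (0.044), the MAP kinase phosphatase Dusp4 (0.077) and Zfand2a (0.085). Lilr4b lay nearest to the cystine importer Slc7a11 (0.14), the carbonic anhydrase Car6 (0.19) and Napb (0.35). Lilrb4a lay nearest to the lipoprotein receptor Vldlr (0.24), Fam171b (0.27) and Gadd45a (0.28). Among the 4 genes themselves, Cd68 and Havcr2 were closest (0.16), and Lilrb4a was nearer to Cd68 (0.43) than to Lilr4b (0.55). With 2 groups of 3 arrays this measure mainly reads the size of the difference, and it is given as a description. That size is uncertain for Lilr4b, Lilrb4a, Car6, Napb, Fam171b and Aldh1l2, which were under the median brightness with DMSO.

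**Figure D4:**
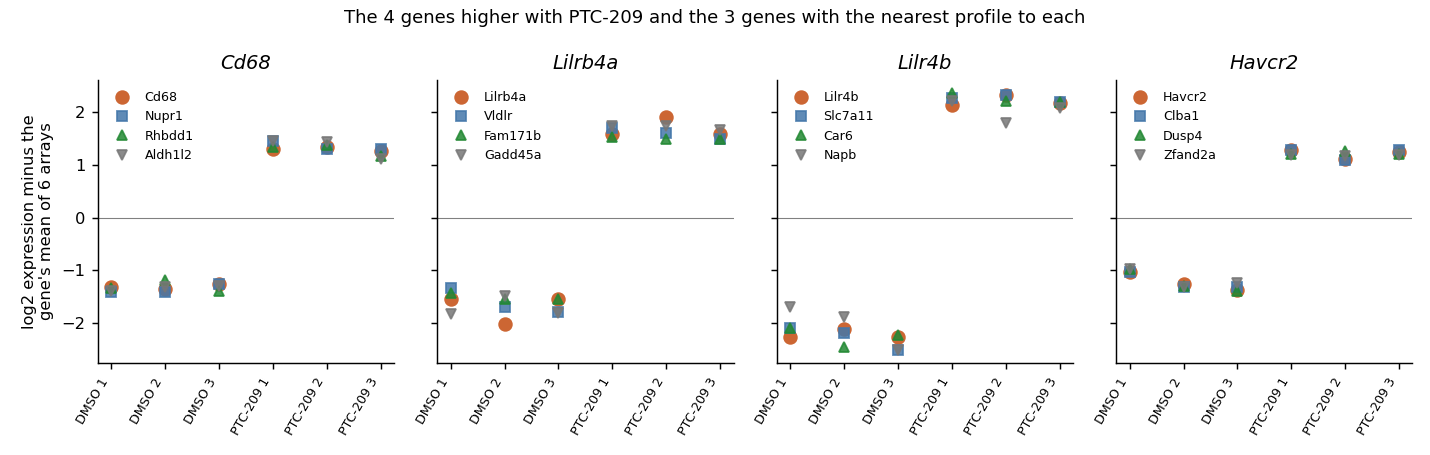
Log2 expression minus the gene's mean of 6 arrays, by array, for Cd68, Lilrb4a, Lilr4b and Havcr2 (orange) and for the 3 genes with the smallest root mean square difference to each. In every panel the 3 DMSO arrays lie under 0 and the 3 PTC-209 arrays above it.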

How the data were processed

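Per the labels' protocols, Trizol was used to extract total RNA of A316 cells, and biotin-labelled RNA was hybridised. The deposited log2 values were made by the authors with RMA (background correction, quantile normalization and a summary per probe set), per the submitters' processing notes. That the scale is log2 follows from the range of the values, and no depth or detection call comes with them. Quantile normalization removes any change common to most genes. The sample descriptions speak of embryos, against the titles, and were not used.

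A run of 6568 probe sets with consecutive identifiers and no gene was left out as controls. Of the 28192 others, 21640 have 1 symbol in the platform annotation, 1321 several and 5231 none listed here, and each gene is read from its probe set with the highest mean. Differences were tested with limma 3.58.1 in R 4.3.3 (lmFit, eBayes), adjusted by Benjamini and Hochberg over the 28192 probe sets, with a threshold of 0.05, on genes other than the 6. The fit was tested on simulated data. The members, lists and tests were chosen with earlier results of these data known. Named genes are the 6, every measured relative, up to 4 rises and 4 falls of each other list, and the 3 nearest profiles, and genes named beyond these were chosen after their values were seen. The alternatives were cyclic loess, median centring, averaging a gene's probe sets, omitting 1 array at a time, a trended and robust prior, the replicate number as a block, leaving out dim probe sets and a minimum fold change of 1.2. Marker sums split by the mean of all arrays, or without Mcpt8, Ptpn22 or Cd14, were added after the values were seen.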

Additional observations from a re-analysis of the deposited data

How the results depend on the processing

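The differences of the 6 genes kept their direction in all 60 values under the alternatives, and 59 moved by less than 1 SD between replicates. Cyclic loess moved Cd68 to 2.54. Leaving out each array gave 2.59 to 2.63 for Cd68. The minimum fold change of 1.2 lowered the leukocyte rises from 6 to 2, and the rises and falls among families and partners from 14 and 15 to 7 and 9. Without 1 array, leukocyte rises ranged from 3 to 4, counting genes called only without that array. With the replicate number as a block, the leukocyte counts were 4 rises and 10 falls and the differences of the 6 genes were unchanged, since the design is balanced. Deviations of same-numbered arrays correlated at 0.231, 0.07 and 0.073. Those of differently numbered arrays were not computed, so these values cannot decide whether the numbers mark pairs. The main fit did not take them as pairs. Flt3, Sla and Hmgb1 lost their calls under the block; the cause was not tested. Of the 66 called genes followed, 44 kept the call under every alternative run and 13 lost it without at least 1 array. The precision is limited by 3 arrays per group, and levels near the background compress differences.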

Other observations

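On the reference assembly (GRCm38.p6, used only for the order of genes), the measured neighbours of the 6 genes were looked at after the other values were seen, 3 on each side. Around Cd68, the translation factor gene Eif4a1 (difference 0.089), Mpdu1 (0.091), Sox15 (0.12), Senp3 (-0.15) and Polr2a (0.12) did not pass, and Fxr2 rose, from 4.96 ± 0.11 to 6.15 ± 0.11 (SD, n = 3; limma adjusted p = 3.33e-05). Around Havcr2, Med7 was bright and differed by 0.033, Fam71b differed by 0.26 and did not pass, and Fndc9, BC053393, Dppa1 and Timd2 were dim, with differences between -0.11 and 0.051. Beside Lilr4b and Lilrb4a, Ascc3 was at 8.20 ± 0.083 and 7.91 ± 0.099 (limma adjusted p = 0.0648), and Sim1, Fam162b, Gprc6a, Rfx6 and Grik2 were dim, with differences between -0.023 and 0.15. Around Mrc1, Stam rose from 8.45 ± 0.047 to 9.77 ± 0.050. Tmem236, dim in both groups, rose by 0.58 (limma adjusted p = 0.0126), and Nsun6 by 0.54 (limma adjusted p = 0.0368). Hacd1 (difference 0.26, limma adjusted p = 0.0777), Slc39a12 (-0.016) and Cacnb2 (0.0082) did not pass. Over all genes 12.9% rose by limma, so these rises are not read as a trait of the neighbourhoods. The calls of Fxr2, Stam, Tmem236 and Nsun6 were not followed over the alternatives. Around Ptprc, Nr5a2, Mir181a-1, Mir181b-1, Atp6v1g3, Nek7 and Lhx9 had differences between -0.070 and 0.24 and did not pass.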
